A study of Mus musculus with 22 samples.

Results

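Thbs1, Thbs2, Thbs3, Ccn1, Ccn2, Ccn3, Ccn5, Postn, Sparc and Tnc are mouse genes of matricellular proteins, and their expression was measured in white fat of mice carrying transplanted bone marrow. Each was found by its symbol in the annotation of the array platform, which gave 1 feature for each of the 10 genes among 19337 named genes. The fat came from male C57BL/6J mice whose new marrow had 6 weeks to settle before 14 weeks on a high-fat diet, in which fat gave 60% of the calories. Inguinal subcutaneous fat (ingWAT) had 3 arrays with Gipr-/-S100a9-/- marrow (double knockout, DKO), 3 with Gipr-/- marrow and 4 with wild-type (WT) marrow. Epididymal fat (epiWAT) had 4 arrays with each kind of marrow. Gipr encodes the receptor of the gut hormone GIP, and S100a9 the alarmin protein S100A9 of neutrophils and monocytes. The recipients were WT for Gipr-/- and WT marrow. The recipient of DKO marrow, the age of the mice and the share of blood cells that the host kept are not given in the sources used here. Only the transplanted blood-forming cells carried the mutations in a WT host, so adipocytes, fibroblasts and vessels were the host's own. Whether every array came from its own mouse is not in the labels, so p-values measure the spread between arrays, which may be technical in part. The 10 genes were chosen by gene family with earlier results of these data in view. Which measured values led to the choice is not stated in the sources used here. The lower values of Thbs1 and Postn with DKO than with Gipr-/- marrow in epiWAT were taken to be among them. Values in ingWAT may have been in view as well.

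Matricellular proteins are secreted into the extracellular matrix, where they change how cells adhere, move and receive growth factors rather than bearing load themselves. Thrombospondin 1 can release transforming growth factor beta (TGF-beta) from its latent complex, and CCN1 and CCN2 bind integrins and are classical targets of the transcriptional coactivators YAP and TAZ, which act through TEAD factors. In fat such proteins are made by stromal cells, vessels and, for thrombospondin 1, also by adipocytes and platelets, and several of them are known from fibrotic tissue.

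The start regions of 3 of these genes are shown because they differ in letters that are often discussed for this family: Ccn1 and Postn, which were lower with DKO than with Gipr-/- marrow, and Thbs2, for which no such difference was called. Each sequence is 250 bases before to 50 after a start in RefSeq, build GRCm38.p6, 5′ to 3′ on the gene's strand. Capitals mark CATTCC, the core of the TEAD motif, and TATAAA, the letters of the TATA box, in either orientation and at any position. The Ccn1 window is chr3:145649936-145650235 on the minus strand, the Postn window chr3:54360857-54361156 on the plus strand and the Thbs2 window chr17:14694213-14694512 on the minus strand.
Ccn1: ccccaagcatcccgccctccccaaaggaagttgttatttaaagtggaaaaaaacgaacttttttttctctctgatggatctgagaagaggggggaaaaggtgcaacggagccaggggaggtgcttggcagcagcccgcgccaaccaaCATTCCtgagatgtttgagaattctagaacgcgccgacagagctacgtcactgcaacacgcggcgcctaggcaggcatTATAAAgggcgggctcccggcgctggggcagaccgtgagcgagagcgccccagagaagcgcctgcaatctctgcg
Postn: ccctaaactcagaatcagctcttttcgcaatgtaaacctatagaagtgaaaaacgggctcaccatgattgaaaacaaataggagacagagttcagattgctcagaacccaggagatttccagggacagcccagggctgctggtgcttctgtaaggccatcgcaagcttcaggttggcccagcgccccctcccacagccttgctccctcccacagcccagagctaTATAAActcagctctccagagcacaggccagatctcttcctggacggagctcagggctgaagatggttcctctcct
Thbs2: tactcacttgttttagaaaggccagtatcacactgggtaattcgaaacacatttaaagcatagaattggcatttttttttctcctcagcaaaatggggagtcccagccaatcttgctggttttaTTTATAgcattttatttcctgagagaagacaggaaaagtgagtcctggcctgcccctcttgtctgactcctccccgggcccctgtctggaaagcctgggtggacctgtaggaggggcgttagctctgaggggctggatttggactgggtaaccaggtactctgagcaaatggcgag
In the Ccn1 window CATTCC began 103 bases before the start and TATAAA 25 bases before it. In the Postn window shown TATAAA began 26 bases before the start, and no CATTCC was found. Postn had another window, chr3:54359017-54359316, which is not shown and held neither TATAAA nor CATTCC. In the Thbs2 window a TATAAA match on the other strand began 126 bases before the start. The table used had 8 windows for 6 of the 10 genes (Thbs2, Thbs3, Ccn1, Postn, Sparc and Tnc), of which both Tnc windows overlap and share their TATAAA match. CATTCC on either strand was in 1 of the 8 windows, against 14.7% of 32851 windows of the same length, and TATAAA in 5 of the 8, against 13.6%. The TATAAA count takes in matches at any position, such as those of Tnc, which began 205 and 126 bases before the start of their windows' genes. The SMAD core CAGAC was in 6 of the 8, against 49.6% of all windows. The AP-1 motif TGANTCA and the CArG box of serum response factor were in 0 of the 8, against 7.81% and 1.63%. TATAAA can lie inside a CArG box, and none of the other motifs holds another. A match describes the letters in the window only.

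The deposited values were read as log2 units, which the sources used here do not state. Adipoq, the adiponectin gene of adipocytes, lay between 18.0 and 19.4 on all 22 arrays, and Plin1, which coats the adipocyte's fat droplet, between 13.1 and 16.3. A marker level is the average over a list after each gene was centred on its mean over all arrays. Mesothelium markers, which belong to visceral fat, lay between -1.58 and -1.10 in ingWAT and between -0.15 and 1.95 in epiWAT. Several arrays stood apart in markers of other tissue. Arrays 1 and 3 of ingWAT with DKO marrow were at 4.93 and 4.77 for T and B cell markers, while the other 8 ingWAT arrays were at -0.22 or lower. Array 1 of epiWAT with DKO marrow was at 6.55 for epididymis epithelium genes, and array 1 of epiWAT with Gipr-/- marrow at 7.09 for testis germ cell genes. Skeletal muscle genes ranged from -0.60 to 5.32 with DKO, from -0.83 to 2.08 with Gipr-/- and from -1.75 to 7.86 with WT marrow in ingWAT. The part of these differences in the results below was not tested, except where values without an array are given. In whole fat, fewer cells of a type and less RNA per cell cannot be told apart.

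All 10 genes passed the filter that dropped the 25% of genes with the lowest means. Their means over the 22 arrays ran from the 49.5th percentile of all genes for Thbs3, a lesser-studied thrombospondin, to the 99.99th for Sparc, a collagen-binding protein of fat stroma. Sparc lay within 1.16 log2 units of the brightest gene on each array and varied by 1.17 over all arrays, and whether its feature was near saturation was not tested. Thbs1 varied the most of the 10, by 6.65 log2 units, followed by Ccn1 with 5.10.

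**Figure D1:**
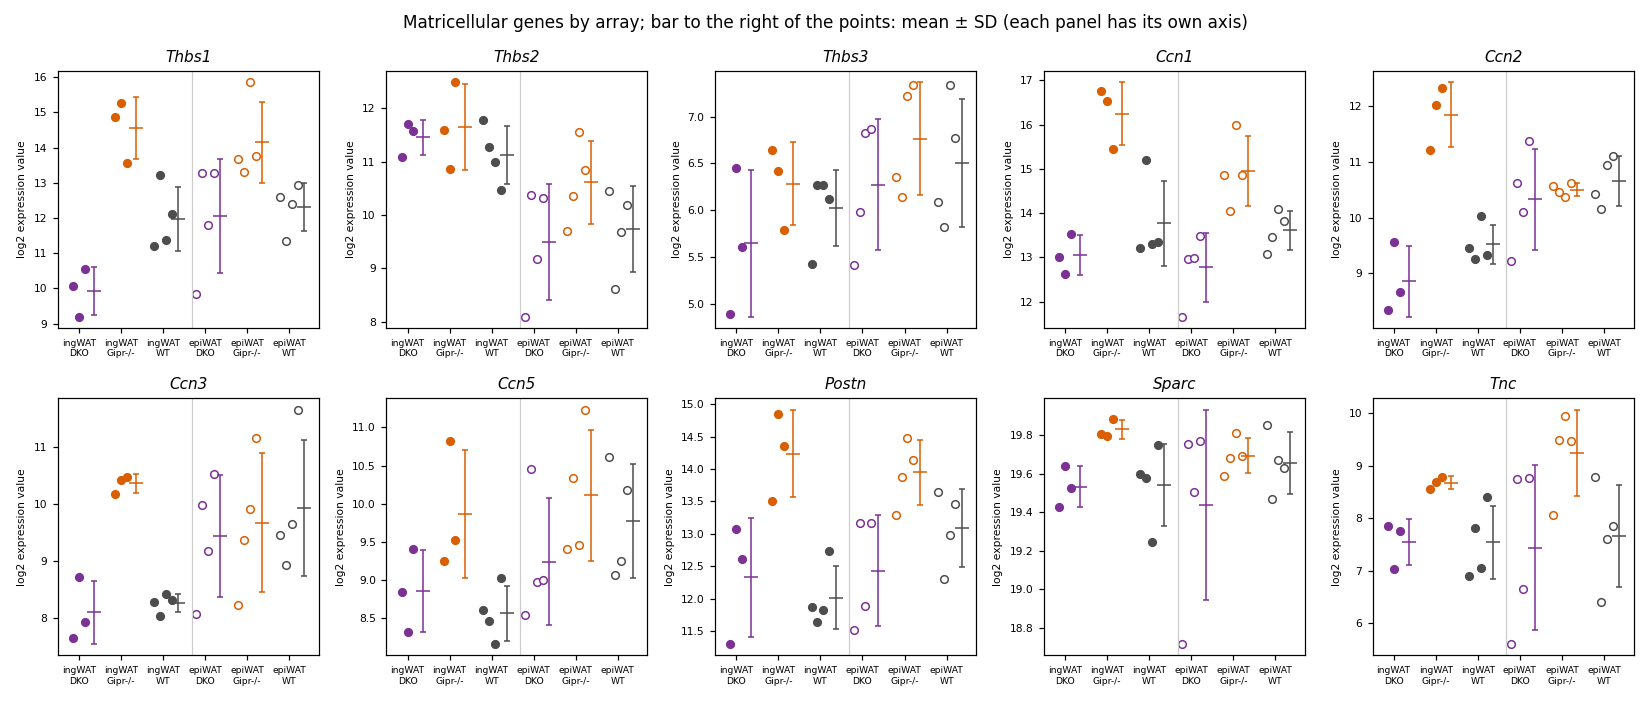
Log2 value (vertical axes) of each of the 10 genes on each of the 22 arrays (points), by depot and marrow, with a bar at the mean ± SD of each group. In ingWAT the 3 arrays with Gipr-/- marrow lie above all 3 with DKO marrow for 7 of the 10 genes, and array 1 of epiWAT with DKO marrow is the lowest epiWAT array for all 10.

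In ingWAT, 5 of the 10 genes fell with DKO relative to Gipr-/- marrow: Thbs1, Ccn1, Ccn2, Ccn3 and Postn. The falls were 24.8-fold for Thbs1, 9.09-fold for Ccn1, 7.99-fold for Ccn2, 4.77-fold for Ccn3 and 3.76-fold for Postn, on the reading of the values as log2. The test was limma's, fitted across 14503 genes, with Benjamini-Hochberg adjustment over all of them and a threshold of 0.05. Of all genes tested 3.48% were called in this comparison, and 2.65% were called lower. Since the 10 genes were chosen with results of these data known, the count describes where they stand in that fit and is not independent evidence.

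Thbs1, whose product binds the receptors CD36 and CD47, stood at 10.06, 9.20 and 10.54 with DKO marrow, at 14.87, 15.25 and 13.57 with Gipr-/- marrow, and at 11.20, 13.22, 11.37 and 12.11 with WT marrow. The 3 groups did not overlap, with DKO arrays the lowest and Gipr-/- arrays the highest. The difference of DKO from Gipr-/- marrow was -4.63 log2 units (SE 0.56, adjusted p = 0.00529).

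Ccn1, a CCN protein that binds integrins, stood at 13.02, 12.63 and 13.53 with DKO marrow, at 16.76, 16.53 and 15.44 with Gipr-/- marrow, and at 13.22, 15.20, 13.31 and 13.35 with WT marrow. All Gipr-/- arrays lay above all others, although array 2 with WT marrow came close to the lowest of them. The DKO minus Gipr-/- difference was -3.18 (SE 0.51, adjusted p = 0.00985).

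Ccn2, known as connective tissue growth factor, stood at 8.33, 9.56 and 8.67 with DKO marrow, at 11.21, 12.02 and 12.33 with Gipr-/- marrow, and at 9.46, 9.25, 10.03 and 9.33 with WT marrow. Here too the Gipr-/- arrays lay above the other 7, while DKO and WT arrays overlapped. The difference of DKO from Gipr-/- marrow was -3.00 (SE 0.38, adjusted p = 0.00529).

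Ccn3, a CCN protein that can oppose CCN2 in kidney cells, stood at 7.66, 8.72 and 7.93 with DKO marrow, at 10.18, 10.42 and 10.48 with Gipr-/- marrow, and at 8.28, 8.04, 8.42 and 8.32 with WT marrow. The Gipr-/- arrays were close together and above the rest. The difference was -2.25 (SE 0.30, adjusted p = 0.00529).

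Postn encodes periostin, a collagen-binding product of activated fibroblasts. It stood at 11.30, 13.07 and 12.61 with DKO marrow, at 13.51, 14.85 and 14.35 with Gipr-/- marrow, and at 11.87, 11.64, 11.82 and 12.73 with WT marrow. The lowest Gipr-/- array was above the highest DKO array by less than the range within either group. The difference of -1.91 (SE 0.47) had an adjusted p of 0.0472, close to the threshold.

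The other 5 genes also had lower means with DKO than with Gipr-/- marrow, without passing the test. Tnc, which encodes tenascin C of wounds and stroma, differed by -1.13 (SE 0.40, adjusted p = 0.144), with values between 7.04 and 7.84 for DKO arrays and between 8.55 and 8.79 for Gipr-/- arrays. Ccn5, a CCN protein without the C-terminal domain of its relatives, differed by -1.01 (SE 0.42, adjusted p = 0.220). Thbs3 differed by -0.63, Sparc by -0.30 and Thbs2, a thrombospondin of fibroblasts, by -0.19, with adjusted p between 0.443 and 0.864. Thbs2 had its 3 DKO values, 11.08 to 11.71, inside its Gipr-/- range of 10.86 to 12.49. The median difference over the 10 genes was -1.52, against -0.03 over all genes tested, and DKO arrays lay below all Gipr-/- arrays for 7 of the 10 genes, a pattern seen in 13.9% of all genes tested.

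**Figure D2:**
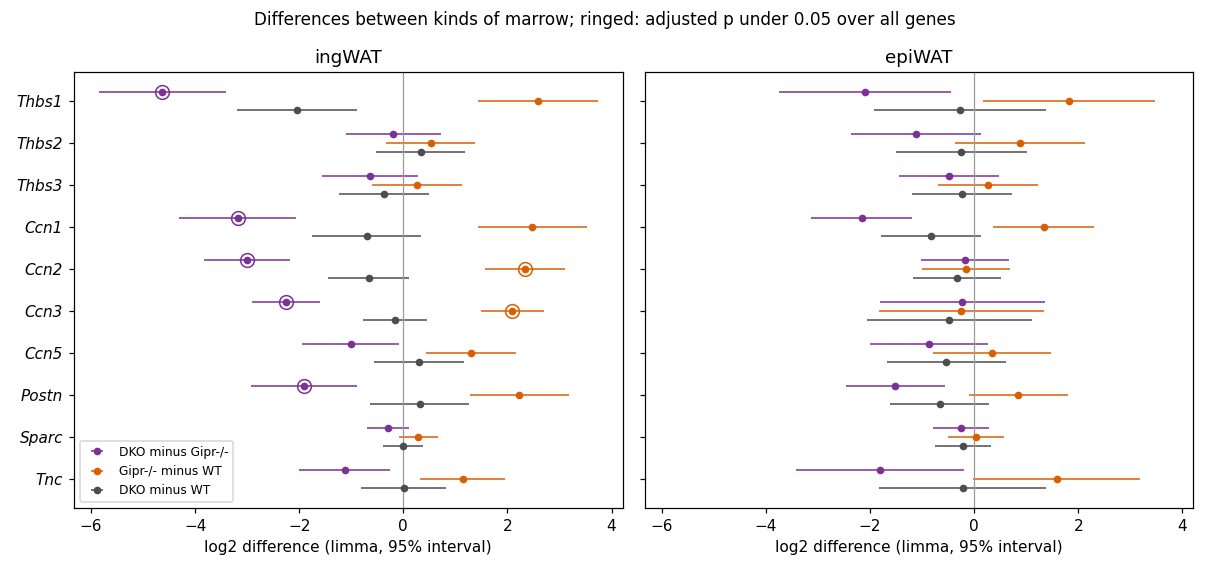
Log2 difference (horizontal axes) of each gene between kinds of marrow in ingWAT (left) and epiWAT (right), as limma estimates with 95% intervals. Rings mark an adjusted p under 0.05 over all genes tested; they stand on Thbs1, Ccn1, Ccn2, Ccn3 and Postn for DKO minus Gipr-/- and on Ccn2 and Ccn3 for Gipr-/- minus WT, all in ingWAT.

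Leaving out each of the 6 arrays in turn, the calls of Thbs1, Ccn2 and Ccn3 were made every time, with adjusted p of at most 0.0400. Ccn1 lost its call without DKO array 1 (adjusted p = 0.0513) and without Gipr-/- array 2 (adjusted p = 0.0641), and its difference was then -3.16 and -3.04. Postn kept its call only when DKO array 2 was left out, with adjusted p between 0.0647 and 0.201 without any other array. Without DKO arrays 1 and 3, which stood apart in T and B cell markers, 1 DKO array remained and was assumed to vary like the other groups. None of the 14503 genes was then called by limma. The differences were -5.36 for Thbs1 (adjusted p = 0.109), -3.61 for Ccn1, -2.29 for Ccn2, -1.64 for Ccn3 (adjusted p = 0.129 for each of these) and -1.17 for Postn (adjusted p = 0.351). Immediate early genes, which rise within minutes of handling or stress, were at 0.06, -0.12 and -0.08 with DKO and at 1.03, 0.37 and -0.02 with Gipr-/- marrow. With their level as a covariate the same 5 genes were called. Postn was not called without the filter on low values (adjusted p = 0.0518), without a variance trend (0.0639) or after quantile normalization (0.0724), and Ccn3 was not called in a fit of all 22 arrays (0.0734).

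**Figure D3:**
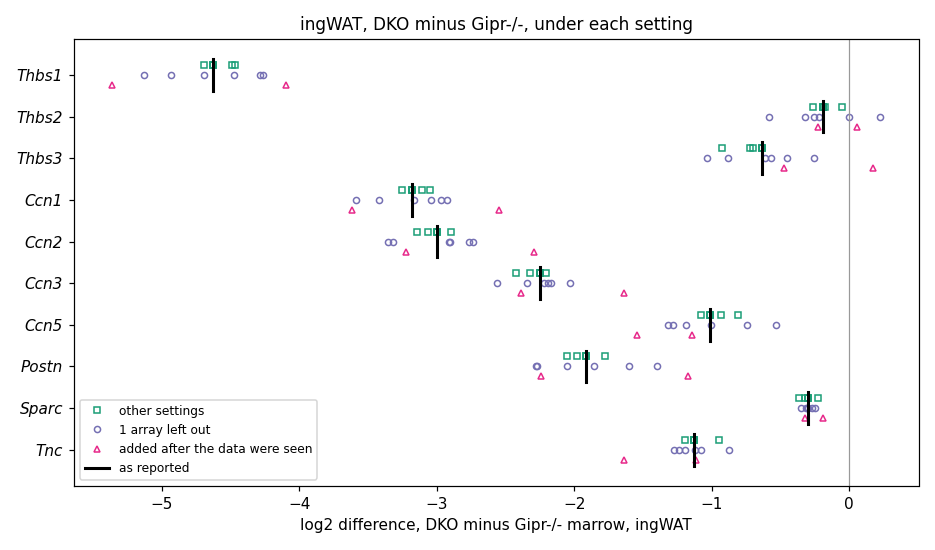
Log2 difference of DKO minus Gipr-/- marrow in ingWAT (horizontal axis) for each gene under the reported setting and each other setting tried, including those that leave out arrays. Thbs1 stays between -5.36 and -4.10 and Ccn2 between -3.35 and -2.29, while Thbs2 and Thbs3 lie on both sides of 0.

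Relative to WT marrow, Gipr-/- marrow went with higher Ccn2 and Ccn3 in ingWAT, by 5.05-fold and 4.27-fold. This comparison shares its Gipr-/- arrays with the one above, so the values of the 10 genes are not independent of it. Ccn2 differed by 2.34 log2 units (SE 0.36, adjusted p = 0.0307) and Ccn3 by 2.09 (SE 0.28, adjusted p = 0.0287). Of all genes tested 0.234% were called, and 0.207% were called higher. Thbs1 (2.59, SE 0.53, adjusted p = 0.0566), Ccn1 (2.48, adjusted p = 0.0561) and Postn (2.23, adjusted p = 0.0561) were just outside the threshold. Ccn5 differed by 1.31, Tnc by 1.14, Thbs2 by 0.53, Sparc by 0.29 and Thbs3 by 0.26, with adjusted p from 0.153 to 0.823. The median over the 10 genes was 1.70, against 0.03 over all genes tested. Gipr-/- arrays lay above all WT arrays for 8 of the 10, a pattern found in 10.2% of all genes.

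Both calls depended on single arrays. Leaving out arrays in turn, the differences themselves were between 2.10 and 2.66 for Ccn2 and between 2.02 and 2.18 for Ccn3. Ccn2 was called only when WT array 4 was left out, and its adjusted p over the 7 ways of leaving out an array ran from 0.0448 to 0.209. Ccn3 was called without Gipr-/- array 3 or WT array 4, and its adjusted p was between 0.0605 and 0.209 without each of the others. Thbs1 and Ccn1 were called without Gipr-/- array 3 (adjusted p = 0.0497 for each), Ccn1 also without WT array 2 (2.95, adjusted p = 0.0271) and Postn without WT array 4 (2.46, adjusted p = 0.0456). The sample titles also carry a numbered code. For WT array 4 and the Gipr-/- arrays other than array 3 it was higher than for all other ingWAT arrays, every DKO array included. What the codes stand for is not stated, and their part in either comparison with Gipr-/- marrow was not tested. WT array 2 had the highest level of immediate early genes in ingWAT, 1.20, while the other WT arrays were at -0.01 or lower. With that level as a covariate Ccn1 (2.08, adjusted p = 0.0463) and Ccn3 were called and Ccn2 was not (2.48, adjusted p = 0.0534). Skeletal muscle genes were lower with Gipr-/- marrow for all 12 listed, with a median difference of -4.76. Skin and gland epithelium markers were lower for 10 of 12 (median -1.76). Endothelial markers were higher for 11 of 11 (median 0.26), macrophage markers for 10 of 13 (0.46) and adipose progenitor and fibroblast markers for 10 of 15 (0.41). None of the genes in these lists was called, and their part in the result was not tested.

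Between DKO and WT marrow in ingWAT, 9 of the 10 genes had differences between -0.71 (Ccn1) and 0.33 (Thbs2), none past the threshold. Thbs1 was at 9.94 ± 0.68 with DKO marrow (SD, n = 3) and 11.98 ± 0.92 with WT marrow (SD, n = 4), a difference of -2.04 (95% interval -3.19 to -0.90) whose adjusted p in limma's fit was 0.136. It was the only one of the 10 whose DKO arrays all lay below the WT arrays, as was so for 5.91% of all genes. For Ccn2 the interval was -1.44 to 0.11, and for Postn -0.64 to 1.27, so differences of either sign remain within these data. Limma called 0 of 14503 genes here, with 1958 at an unadjusted p under 0.05. That 0 depended on the setting. Without DKO array 2 there were 620 genes called, with array weights 555, in a fit of all 22 arrays 133 and after quantile normalization 4. Without the filter, without a variance trend and after median centring there were 0. The 10 genes were not among those called.

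Macrophage markers moved with the 10 genes between DKO and Gipr-/- marrow in ingWAT. Their level was -1.46, -0.65 and -0.92 with DKO marrow and 0.13, -0.15 and 0.04 with Gipr-/- marrow, and 12 of 13 were lower with DKO marrow, 2 of them called. Endothelial markers were lower for 11 of 11, with none called and levels of -0.06 to 0.26 with DKO and 0.17 to 0.85 with Gipr-/- marrow. Adipose progenitor and fibroblast markers were lower for 12 of 15, with none called, and their level was -0.11 to 0.08 with DKO and 0.06 to 0.43 with Gipr-/- marrow. Smooth muscle and pericyte markers had 9 of 12 lower and 1 called. Megakaryocyte and platelet markers, of a lineage that stores thrombospondin 1, had 5 of 7 lower and none called, with levels of -0.19 to -0.11 with DKO and -0.20 to 0.14 with Gipr-/- marrow. The part of these cell types in the falls of the 10 genes was not tested.

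**Figure D4:**
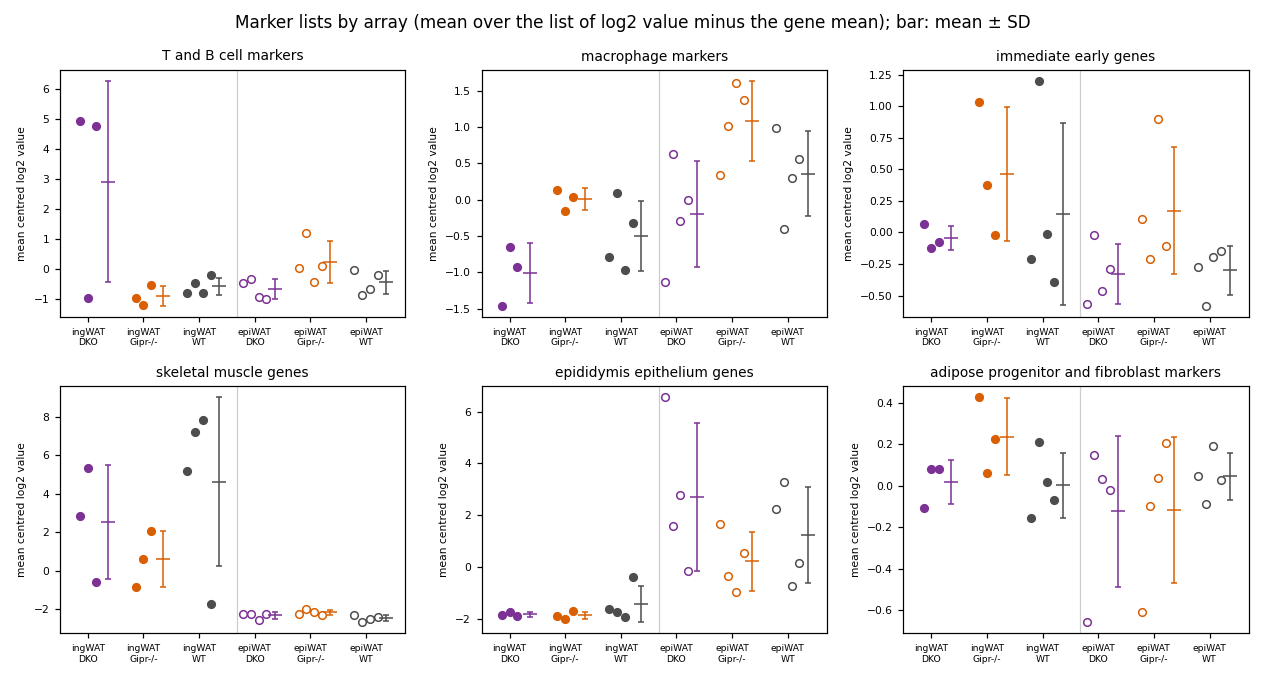
Level of 6 marker lists (vertical axes, average of the list's centred log2 values) on each array, by depot and marrow, with bars at the mean ± SD. T and B cell markers are high on 2 of the 3 ingWAT arrays with DKO marrow, and macrophage markers on all 3 lie below the 3 with Gipr-/- marrow.

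Genes that work with these proteins were counted in the same ingWAT fit, in which 3.48% of all genes were called and 2.65% called lower. Among 25 tested receptors of matricellular proteins, 1 fell and 1 rose with DKO relative to Gipr-/- marrow. Itga5, the alpha chain of the fibronectin receptor, fell by 2.43 log2 units (SE 0.31, adjusted p = 0.00529): it stood at 6.12, 6.55 and 6.67 with DKO marrow, at 9.04, 9.19 and 8.39 with Gipr-/- marrow and at 6.73 to 7.38 with WT marrow. It was also the only receptor called between Gipr-/- and WT marrow (1.79, SE 0.29, adjusted p = 0.0323), with all Gipr-/- arrays above the rest. Itga4, an integrin chain of lymphocytes and other leukocytes, rose by 1.5 with DKO marrow (adjusted p = 0.0489), on arrays of which 2 were high in T and B cell markers. It stood at 12.00, 10.99 and 11.48 with DKO marrow and at 9.95, 9.44 and 10.59 with Gipr-/- marrow. The value of 10.99 was on the DKO array that was not high in those markers. Cd36 and Cd47, receptors of thrombospondin 1, and Lrp1, which clears it, differed by -0.31, -0.04 and 0.28 between DKO and Gipr-/- marrow, with adjusted p of at least 0.528.

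Of the 19 YAP/TEAD targets tested beside the 10 genes, limma called 0 between DKO and Gipr-/- marrow, and their median difference was -0.16, against -0.03 over all genes. Among them Ankrd1 differed by -0.14 and Amotl2 by 1.06, in the other direction from Ccn1 and Ccn2, with adjusted p of 0.870 and 0.127. Of 16 Hippo pathway components 2 fell. Wwtr1, which encodes TAZ, was at 11.34, 12.22 and 11.23 with DKO marrow and at 12.86, 12.52 and 12.80 with Gipr-/- marrow (-1.13, adjusted p = 0.0478). Vgll3, a TEAD cofactor, was at 11.67, 11.83 and 11.97 with DKO marrow and at 14.63, 14.36 and 12.55 with Gipr-/- marrow (-2.02, adjusted p = 0.0418). Its lowest Gipr-/- array lay inside the WT range of 12.43 to 13.58. Yap1 differed by -0.19 (adjusted p = 0.837). Among 24 genes of the TGF-beta pathway 1 fell, Lrrc32, which holds latent TGF-beta on the cell surface (-2.37, adjusted p = 0.0174), while Tgfb1 differed by 0.26. Among 19 targets of SRF and its MRTF coactivators 1 fell, the smooth muscle actin gene Acta2 (-1.30, adjusted p = 0.0355). Of 17 other matricellular genes 1 fell, Lgals3 for galectin 3, abundant in macrophages (-2.28, adjusted p = 0.0266), while Thbs4 and Comp, the thrombospondins of tendon and cartilage, differed by -0.09 and -0.01. These counts of 0 to 2 stand beside the 2.65% of all genes called lower. Ccn4 was below the filter and was not tested, and Spp1 was not analysed here. Some genes named above were low in ingWAT: Comp lay between 4.70 and 5.13, Ankrd1 between 5.65 and 6.55 and Thbs4 between 6.13 and 6.85. The medians of the arrays ran from 6.11 to 6.54, so the small differences of these genes say little about change.

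In epiWAT the comparison of DKO with Gipr-/- marrow was taken to have been in view when the genes were chosen. Its values are therefore given as a description with no test. Thbs1 stood at 9.85, 13.26, 11.81 and 13.29 with DKO marrow, at 13.68, 13.31, 15.85 and 13.75 with Gipr-/- marrow and at 12.60, 11.35, 12.40 and 12.93 with WT marrow. Ccn1 stood at 11.67, 12.97, 12.98 and 13.49 with DKO marrow, at 14.87, 14.06, 15.98 and 14.86 with Gipr-/- marrow and at 13.07, 13.47, 14.09 and 13.81 with WT marrow. Postn stood at 11.51, 13.16, 11.89 and 13.17 with DKO marrow, at 13.29, 13.88, 14.47 and 14.14 with Gipr-/- marrow and at 13.65, 12.30, 12.97 and 13.46 with WT marrow. For these 3 genes every Gipr-/- array lay above every DKO array, for Thbs1 with only 13.306 against 13.292 at the closest. A separation in this direction was seen in 2.91% of all genes. The mean differences of DKO from Gipr-/- marrow were -2.10 for Thbs1, -2.16 for Ccn1, -1.52 for Postn, -1.81 for Tnc, -1.12 for Thbs2 and -0.87 for Ccn5. Ccn2 (-0.18) and Ccn3 (-0.23) had nearly equal means in both groups, as did Sparc (-0.26), and Thbs3 differed by -0.49.

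Gipr-/- minus WT differences in epiWAT were 1.82 for Thbs1, 1.59 for Tnc, 1.33 for Ccn1, 0.87 for Thbs2 and 0.85 for Postn, and -0.15 for Ccn2 and -0.25 for Ccn3. Thbs1 was the only one of the 10 whose Gipr-/- arrays all lay above the WT arrays, as 2.29% of all genes did. DKO minus WT differences were between -0.83 and -0.22 for the 10 genes, with overlapping arrays for every gene. Limma called 0 of 14503 genes in each of the 3 epiWAT comparisons, 0% of those tested. That count depended on the setting. With the level of epididymis genes as a covariate, 43 genes were called for Gipr-/- against WT and 20 for DKO against Gipr-/- marrow. Array weights gave 26 for Gipr-/- against WT marrow. The 10 genes were not among these. At an unadjusted p under 0.05 there were 1555 genes for DKO against Gipr-/-, 1052 for Gipr-/- against WT and 444 for DKO against WT marrow.

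Array 1 of epiWAT with DKO marrow, high in epididymis genes, was the lowest of the 12 epiWAT arrays for all 10 genes. Its level was also low for adipocyte markers, -1.55, and for endothelial markers, -1.75. Without it and array 1 with Gipr-/- marrow, the DKO minus Gipr-/- differences were -1.52 for Thbs1, -1.82 for Ccn1, -1.43 for Postn and -1.59 for Tnc, and 0.21 for Ccn2. The DKO minus WT differences without these arrays were 0.46 for Thbs1, 0.39 for Tnc and 0.22 for Thbs2, between -0.03 and 0.05 for Thbs3, Ccn2, Ccn3 and Sparc, and -0.46 for Ccn1, -0.36 for Postn and -0.30 for Ccn5. Macrophage markers were lower with DKO than with Gipr-/- marrow for 13 of 13, at levels of -1.13 to 0.63 with DKO and 0.34 to 1.61 with Gipr-/- marrow. Smooth muscle and pericyte markers were lower for 9 of 12 (median -1.15), T and B cell markers for 10 of 10 (-0.92) and targets of SRF and MRTF for 19 of 19 (-1.31). Those targets were higher with Gipr-/- than with WT marrow for 19 of 19 (median 1.46), with smooth muscle and pericyte markers higher for 9 of 12 (1.20). The level of the targets was -0.73 to 3.42 with Gipr-/-, -1.03 to 2.74 with DKO and -0.41 to 0.44 with WT marrow. For smooth muscle and pericyte markers it was -0.88 to 2.57, -0.64 to 1.97 and -0.60 to 0.32. The ranges of the groups thus overlapped for both lists. The part of these lists in the values of the 10 genes was not tested.

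Over the 6 groups the order of the means differed between genes. For Thbs1 the mean was 14.57 ± 0.88 in ingWAT with Gipr-/- marrow (SD, n = 3), 14.15 ± 1.15 in epiWAT with Gipr-/- marrow (n = 4), 12.32 ± 0.68 in epiWAT with WT marrow (n = 4), 12.05 ± 1.62 in epiWAT with DKO marrow (n = 4), 11.98 ± 0.92 in ingWAT with WT marrow (n = 4) and 9.94 ± 0.68 in ingWAT with DKO marrow (n = 3). The gap below both Gipr-/- groups and the gap above ingWAT with DKO marrow exceeded the larger SD of the neighbours, and the other neighbours did not differ beyond their spread. Postn had the same groups at its top, 14.24 ± 0.68 in ingWAT and 13.95 ± 0.50 in epiWAT with Gipr-/- marrow, and ended with 12.33 ± 0.92 in ingWAT with DKO marrow and 12.01 ± 0.49 in ingWAT with WT marrow. From epiWAT with WT marrow down, neighbours for Postn were within their spread. Ccn1 likewise had Gipr-/- marrow at the top, 16.2 ± 0.71 in ingWAT and 14.9 ± 0.79 in epiWAT, and both DKO groups at the bottom, 13.1 ± 0.45 in ingWAT and 12.8 ± 0.78 in epiWAT. Both DKO groups were within their spread of each other, and the ingWAT one overlapped epiWAT with WT marrow, the next above.

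Ccn2 had another order. Its mean of 11.85 ± 0.58 in ingWAT with Gipr-/- marrow (SD, n = 3) stood above 10.33 ± 0.91, 10.50 ± 0.11 and 10.66 ± 0.45 in epiWAT with DKO, Gipr-/- and WT marrow (n = 4 each), which did not differ beyond their spread. Below them were ingWAT with DKO marrow at 8.85 ± 0.63 (n = 3) and with WT marrow at 9.52 ± 0.35 (n = 4). Ccn3 followed the same order, with 10.36 ± 0.16 in ingWAT with Gipr-/- marrow at the top and 8.11 ± 0.55 with DKO and 8.27 ± 0.16 with WT marrow in ingWAT at the bottom, and neighbours among the first 4 groups were within their spread. Thbs2 instead had its 3 ingWAT groups on top, at 11.46 ± 0.33 with DKO, 11.65 ± 0.81 with Gipr-/- and 11.13 ± 0.55 with WT marrow, and its epiWAT groups between 9.49 and 10.61. The gap at the boundary, ingWAT with WT over epiWAT with Gipr-/- marrow, was 0.51, less than the larger SD of 0.78, and their arrays overlapped.

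Between the depots, 1 of the 10 genes was called, and that with DKO marrow. The epiWAT arrays with DKO and Gipr-/- marrow are those whose values were taken to have been in view when the genes were chosen. Ccn2 fell by 1.47 log2 units in ingWAT relative to epiWAT (SE 0.41, adjusted p = 0.0462), although the highest ingWAT array, 9.56, overlapped the lowest epiWAT array, 9.21. Of all genes 3.92% were called there, and 2.21% were called lower. Thbs2 was higher in ingWAT on every array with DKO marrow, at 11.08, 11.71 and 11.58 against 8.10, 10.38, 9.17 and 10.33 in epiWAT, but missed the threshold (1.96, SE 0.55, adjusted p = 0.0520), and 6.57% of all genes had such a separation. Its difference was 1.04 with Gipr-/- marrow (adjusted p = 0.376) and 1.39 with WT marrow (adjusted p = 0.174). With Gipr-/- marrow limma called 0 of the 10 genes, against 0.614% of all genes, and with WT marrow 0, against 1.96%. At an unadjusted p under 0.05 there were 2 of the 10 with Gipr-/- marrow, against 15.1% of all genes, and 5 with WT marrow, against 16.6%. Ccn2 differed by 1.35 with Gipr-/- marrow (adjusted p = 0.137), with ingWAT arrays above all epiWAT arrays, as for 9.23% of all genes. With WT marrow 3 of the 10 had all ingWAT arrays below the epiWAT arrays, Ccn2 (-1.14, adjusted p = 0.125), Ccn3 (-1.66, adjusted p = 0.154) and Ccn5 (-1.21, adjusted p = 0.203), against 7.27% of all genes. Thbs2 had them above, against 4.38%.

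The Ccn2 call with DKO marrow was made in 2 of the 7 fits that left out an array. It was lost without ingWAT arrays 1 and 3 and epiWAT array 3, among others, with adjusted p up to 0.200. It was also lost without the filter (adjusted p = 0.0561), without a variance trend (0.0514), after quantile normalization (0.0630) and after median centring (0.0819). Without epiWAT array 1, high in epididymis genes, Thbs1 was called as well (-2.85, adjusted p = 0.0268, against -2.12 and 0.111 with it). Without ingWAT arrays 1 and 3, high in T and B cell markers, the Ccn2 difference was -0.77 with an adjusted p of 0.554.

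**Figure D5:**
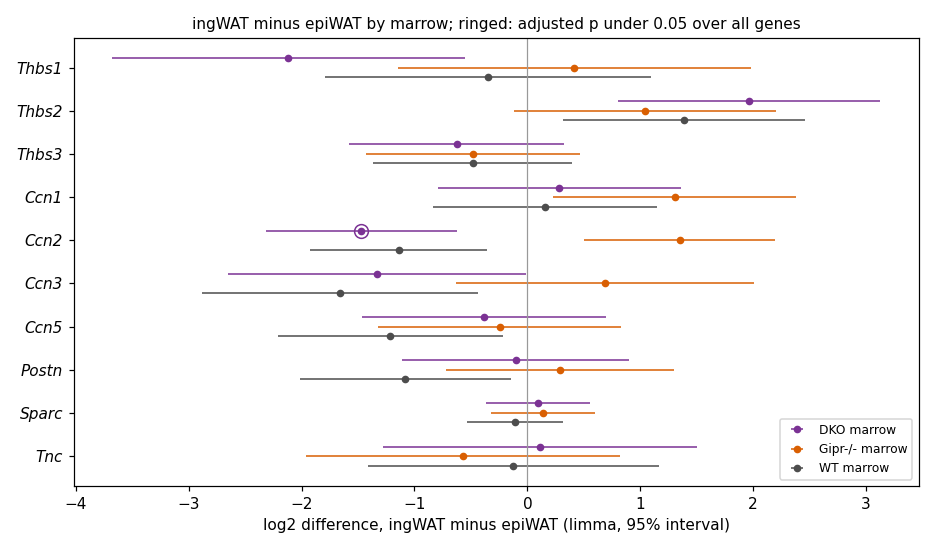
Log2 difference of ingWAT minus epiWAT (horizontal axis) for each gene with DKO, Gipr-/- and WT marrow, as limma estimates with 95% intervals over all 22 arrays. The ring marks the only adjusted p under 0.05, Ccn2 with DKO marrow at -1.47, and Thbs2 is above 0 with each marrow.

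The DKO minus Gipr-/- difference in ingWAT was also set against that in epiWAT. The epiWAT values were taken to have been in view when the genes were chosen, so these differences of differences are a description with no test. They were -2.82 log2 units for Ccn2, -2.53 for Thbs1, -2.02 for Ccn3, -1.02 for Ccn1 and -0.40 for Postn. Ccn2 was the only one of the 10 past the threshold of limma's fit, as 0.717% of all genes were, 0.372% with a negative value, and nothing is read from that count. For Ccn2 it was -2.12 without ingWAT DKO arrays 1 and 3. For Gipr-/- relative to WT marrow, the difference between depots was 2.49 for Ccn2 (adjusted p = 0.273) and 2.34 for Ccn3 (adjusted p = 0.530), and limma called 0 of 14503 genes, with 1153 at an unadjusted p under 0.05.

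Outside the 10 genes, those whose values over the 22 arrays ran most like Thbs1, Ccn2 and Postn were ranked by Pearson correlation after the mean of each depot was taken off. The arrays share their groups and the tissue makeup described above, so the coefficients are descriptions. Nearest to Thbs1 were Adap2 (r = 0.921), Gda for guanine deaminase (0.917) and Blvra for biliverdin reductase A (0.913). Nearest to Ccn2 were Pttg1ip (0.944), Mprip (0.881), whose product binds myosin phosphatase, and Arfgap3 (0.880). Nearest to Postn were Pam (0.936), an enzyme that amidates peptides, Elmod2 (0.893) and Rp2 (0.892). Adap2 was at 10.15 ± 0.43 in ingWAT with DKO marrow (SD, n = 3), 12.86 ± 0.64 with Gipr-/- marrow (n = 3) and 10.90 ± 0.40 with WT marrow (n = 4), the same order of groups as Thbs1 in that depot. By Spearman correlation none of the 3 genes nearest to Thbs1 was the same.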

How the data were processed

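Gene expression was measured on 22 one-colour Affymetrix whole-transcript arrays, from 100 ng of total RNA each, per the labels' protocols. The authors deposited 21793 features as log-scale values from 1.92 to 19.9, taken here as log2. Partek 6.6 is among the tools in the submitters' processing notes. Neither the log base nor a normalization is stated in the sources used here. The platform annotation gave 19341 features a symbol and left 2452 unnamed. The brighter feature was kept where a gene had several, and no pair of arrays was identical. Array data carry no read depth, so the number of arrays limits precision.

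Groups came from the labels; array numbers follow accession order within a group and pair nothing. Marrow was compared by limma 3.58.1 in R 4.3.3 (lmFit, eBayes with trend), each depot fitted apart. Depots were compared in a fit of all 22 arrays. The 25% of genes with the lowest means were left out, leaving 14503. Tests were two-sided and adjusted by Benjamini-Hochberg at 0.05. The fit was tested on simulated data: for DKO minus Gipr-/- marrow in ingWAT, it recovered 70% of changes of 2 log2 units. The simulated noise was independent between genes and held no differences in tissue makeup, so recovery on the real arrays may differ. Alternatives were no filter, no trend, array weights, quantile normalization, median centring, covariates, 1 fit of all arrays and leaving out arrays.

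The members and lists were chosen with earlier results of these data known. Named were the 10 genes, called members of 6 lists of related genes (up to 4 by p in a comparison), a few genes of those lists named whatever their values, and the 3 genes most like each of Thbs1, Ccn2 and Postn.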

Additional observations from a re-analysis of the deposited data

Results flagged for a closer look

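Ccn1 stood at 15.2 log2 units on array 2 of ingWAT with WT marrow, while the other 3 arrays of that group lay between 13.2 and 13.4. The gap to the nearest of them was 0.933 of the group's range, above Dixon's critical value for 4 samples. Of 40 groups of 4 arrays examined over the 10 genes this was the only such value, and chance flags about 1 in 20 groups. The same array had the highest level of immediate early genes in ingWAT, 1.20. The part of that level in the Ccn1 value was not tested.

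For Ccn2 the DKO minus Gipr-/- difference in ingWAT minus that in epiWAT was -2.82 log2 units, past the threshold of limma's fit over all genes. The epiWAT comparison in it was taken to have been in view when the genes were chosen, so the value is a description and not a test.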

How the results depend on the processing

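Labels give no replicate numbers. No paired analysis was possible because nothing in the labels ties arrays of different groups to each other. Of the 10 genes, the 5 called between DKO and Gipr-/- marrow in ingWAT became 3 to 5 when arrays were left out in turn and 0 without DKO arrays 1 and 3. Postn lost its call without the filter, without the trend and after quantile normalization, and Ccn3 in a fit of all 22 arrays. The 2 called between Gipr-/- and WT marrow became 0 to 3 when arrays were left out, 0 without a variance trend, 1 after quantile normalization, and 5 with array weights or median centring. The 1 called between depots with DKO marrow became 0 to 2 when arrays were left out, 3 with array weights, and 0 without the filter, without the trend, after median centring or without DKO arrays 1 and 3. After quantile normalization Ccn2 lost that call and Thbs2 gained one (2.13, adjusted p = 0.0384). Array weights gave 1 call between depots with Gipr-/- marrow, 2 with WT marrow and 1 for the depot difference of Gipr-/- minus WT, each 0 otherwise. The depot difference of DKO minus Gipr-/- is a description, and its 1 gene past the threshold became 0 to 1 when arrays were left out and 0 without ingWAT DKO arrays 1 and 3. The settings that leave out a pair of arrays, take immediate early genes as a covariate, or leave out arrays from a depot difference of differences were chosen after seeing the data. The cause of these changes was not tested, beyond the fewer arrays in some fits.

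Sign changes concerned uncalled values. Without ingWAT DKO arrays 1 and 3, DKO minus Gipr-/- in ingWAT was 0.059 for Thbs2 and 0.17 for Thbs3. DKO minus WT there was 0.43 for Thbs3, 0.043 for Ccn2, 0.46 for Ccn3, -0.24 for Ccn5, 0.10 for Sparc and -0.50 for Tnc. The depot difference with DKO marrow was 0.18 for Thbs3, -0.15 for Ccn1, 0.64 for Postn and -0.40 for Tnc, and the depot difference of DKO minus Gipr-/- was 0.66 for Thbs3, 0.35 for Postn and 0.067 for Sparc. DKO minus WT for Tnc in ingWAT was -0.024 after quantile normalization and -0.0040 after median centring. Array weights gave depot differences of -0.067 for Sparc and -0.015 for Tnc with DKO marrow, -0.042 for Ccn3 with Gipr-/- marrow, and 0.39 for Ccn5 in the depot difference of DKO minus Gipr-/-. Quantile normalization gave 0.0038 for Postn with DKO marrow, 0.017 for Tnc with WT marrow and 0.022 for Sparc in the depot difference of DKO minus Gipr-/-. Leaving out arrays in turn gave, in ingWAT, -0.59 to 0.23 for Thbs2 in DKO minus Gipr-/-, and in DKO minus WT -0.78 to 0.0063 for Thbs3, -0.47 to 0.062 for Ccn3, -0.057 to 0.83 for Postn, -0.11 to 0.059 for Sparc and -0.21 to 0.30 for Tnc. Between depots with DKO marrow it gave -0.087 to 0.52 for Ccn1, -0.66 to 0.017 for Ccn5, -0.48 to 0.41 for Postn, -0.14 to 0.21 for Sparc and -0.50 to 0.55 for Tnc. With Gipr-/- marrow it gave -0.73 to 0.13 for Ccn5 and -0.014 to 0.65 for Postn, and with WT marrow -0.32 to 0.34 for Ccn1 and -0.54 to 0.25 for Tnc. In the depot difference of Gipr-/- minus WT it gave -0.77 to 0.044 for Thbs2 and -0.28 to 0.25 for Thbs3, and in that of DKO minus Gipr-/- -0.55 to 0.24 for Thbs3, -0.51 to 0.34 for Ccn5, -0.77 to 0.12 for Postn and -0.28 to 0.068 for Sparc. Of the genes most like Thbs1, Ccn2 and Postn, Spearman ranking shared 0, 2 and 1 of 3. Groups of 3 or 4 arrays, an unknown normalization and whole-tissue RNA limit all values.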
